A study of Mus musculus with 9 samples.

Results

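The genes described here are 29 genes known for their expression in Schwann cells and other glia, followed across 9 RNA sequencing libraries of cultured calvarial cells from newborn mice. They are a named list, all 29 matched a gene symbol in the count table of 25860 genes, and the list was chosen by their function and by their measured levels in these same libraries, including how they varied together and how the genotypes differed. Their difference between the genotypes is therefore given as a description. The labels give 5 IRE1KO and 4 WT libraries. In both groups the cells were Osx1-Cre cells, in which the promoter of osterix, a transcription factor of the osteoblast lineage, drives Cre recombinase. Calvarial cells were sorted for it by flow cytometry, grown in alpha-MEM with 10% fetal bovine serum and harvested at 90% confluence. Each library pooled 3 to 5 pups of 2 to 4 days and is called 1 biological replicate in the labels. IRE1, encoded by Ern1, is a stress sensor of the endoplasmic reticulum, and the labels name the genotypes IRE1KO and WT with no further detail of the alleles or the strain.

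Schwann cells are the glia of peripheral nerves. They arise from the neural crest through precursors that depend on the transcription factor SOX10 and on the receptor ERBB3, which binds neuregulin presented by axons, and they either wrap axons in myelin under the control of EGR2 or ensheathe several small axons without myelin. Nerve fibres with their Schwann cells run through periosteum and bone marrow. Several genes of the list are not restricted to glia and are also active in mesenchymal cells or neurons.

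Total counts were 18784636 to 22028075 per library. Levels are CPM, counts rescaled to the usual common library total, and adjusted by TMM, a correction for library composition, and a count of 3, taken as the detection floor, was worth 0.136 to 0.16 CPM before that scaling. Ern1 was at 49.7 to 55.8 CPM in the libraries labelled IRE1KO and 41.5 to 54.2 CPM in those labelled WT. A total per gene does not show a deleted exon, so it does not check the labels. The labelled osteoblast lineage was present in its matrix and early genes (Col1a1 at 15454 to 31079 CPM, Runx2 at 59.8 CPM or more in each of the 9 libraries), while Bglap, the gene of mature osteoblasts, was at most 0.192 CPM. For the genes described here the WT libraries were not alike. The lowest of the 4 WT libraries was WT library 1 in 22 of the 29 genes, against 31.1% of the 13712 genes tested. Counted over all 29 genes, WT library 1 lay within or below the range of the IRE1KO libraries in 17. The share of all genes tested for that count was not computed. WT library 4 was the highest WT library in 20 of the 29, against 37.9% of genes tested. Results are therefore given with and without these libraries.

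The lineage genes of Schwann cells were low in all 5 IRE1KO libraries and in WT library 1, and higher in the other 3 WT libraries. The mean level was lower in IRE1KO for 23 of the 29 genes and higher for 6. It was at least 2-fold lower for 17 of the 29, against 1.49% of all genes tested, and at least 2-fold higher for none. The 17 include Foxd3 and Gfra3, which were too low to be tested and so lie outside that share. They also include Sox10, Cdh19, Ednrb and Sox2, which reached the filter on low counts in fewer than 4 IRE1KO libraries. The median over all 29 genes of the log2 ratio of mean CPM was -1.12, and over all genes tested it was -0.0049. In 9 of the 29 genes every IRE1KO library lay below every WT library, as it did in 3.28% of the genes tested. At an adjusted p under 0.05 over all genes (the quasi-likelihood F test of edgeR, adjusted by Benjamini and Hochberg's method) 2 of the 29 were called, both lower in IRE1KO, where 0.379% of genes tested were called lower and 0.634% in either direction. Without WT library 1 the same test called 16, of which 14 were lower, and it then called 5.25% of genes lower and 8.63% in either direction. Without WT library 4 it called 4, all lower, and it then called 2.9% of genes in either direction. With any 1 of the 5 IRE1KO libraries, WT library 2 or WT library 3 left out it called 0. The counts from limma voom and the replicate block with all libraries were also 0. DESeq2 called 13, all lower, and 4.14% of all genes tested in either direction. Because the list was chosen with this contrast known, none of these counts supports a difference. In a bulk culture, fewer cells of a type and less RNA per cell cannot be told apart.

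**Figure D1:**
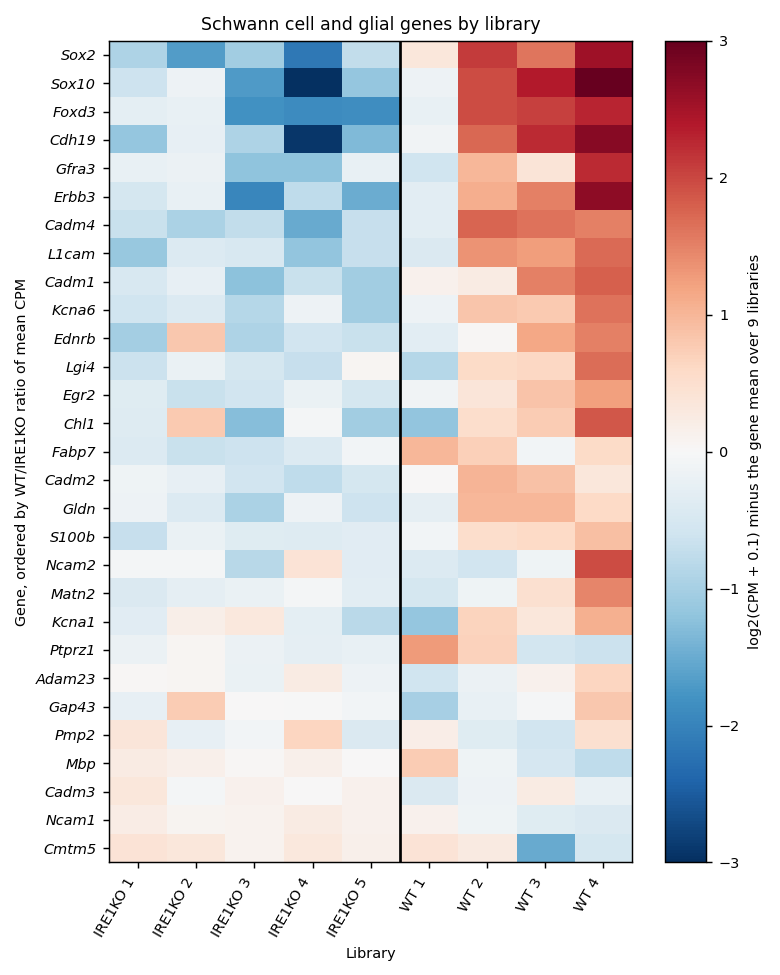
Level of the 29 genes in each library, as log2(CPM + 0.1) minus the gene's mean over the 9 libraries, with genes ordered from the highest to the lowest ratio of WT to IRE1KO mean CPM and the line separating 5 IRE1KO from 4 WT libraries. In the upper rows WT libraries 2, 3 and 4 are red, while WT library 1 has the pale or blue shades of the IRE1KO libraries, and the lowest rows run the other way or show little difference.

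Among the transcription factors, Sox10, Foxd3, Sox2 and Egr2 all had a mean at least 2-fold lower in IRE1KO. Sox10 (chromosome 15, 79154908 to 79165240, GRCm38), the master regulator of the peripheral glial lineage, was at 0.97, 4.57, 6.11 and 9.82 CPM in WT libraries 1 to 4 and at 0.679, 0.972, 0.265, 0 and 0.431 CPM in IRE1KO libraries 1 to 5. The level in WT library 1 was that of IRE1KO library 2, with 19 counts in each, and IRE1KO library 4 had 0 counts of Sox10 in 22028075. The group means were 5.37 ± 3.67 CPM (SD, n = 4) and 0.47 ± 0.374 CPM (SD, n = 5), a fitted log2 fold change of -3.51 ± 0.76 SE, which was -3.86 without WT library 1 and -3.05 without WT library 4.

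Sox2, which marks immature and dedifferentiated Schwann cells, was at 0.715, 2.67, 1.87 and 3.66 CPM in the WT libraries and at 0.243, 0.102, 0.212, 0.0456 and 0.288 CPM in the IRE1KO libraries. The groups did not overlap, although the gap between WT library 1 and IRE1KO library 5 was small beside the spread within WT. Its log2 fold change of -3.60 ± 0.55 SE was the most negative of the 27 genes tested, and Sox2 was 1 of the 2 called genes, a call lost without any 1 IRE1KO library, WT library 2 or WT library 3. Sox2 passed the filter on low counts through the WT libraries alone, since none of the IRE1KO libraries reached the filter's 0.505 CPM.

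Foxd3 is a neural crest factor that keeps Schwann cell precursors from the pigment cell fate. It was at 0.357, 2.0, 2.12 and 2.51 CPM in WT and at 0.34, 0.358, 0.0531, 0.0456 and 0.0479 CPM in IRE1KO. There were 7 counts of it in WT library 1, as in IRE1KO libraries 1 and 2, and the other 3 IRE1KO libraries had 1 count each. It was too low to be tested with all libraries. Egr2, the activator of myelin genes, which is also induced by growth factors as an immediate early gene in many cells, was at 7.91, 11.1, 15.6 and 20.4 CPM in WT and at 6.65, 5.32, 5.68, 7.43 and 5.94 CPM in IRE1KO. Every WT library was above every IRE1KO library, WT library 1 by the least, and the log2 fold change was -1.15 ± 0.25 SE.

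The upstream stretches of Sox2 and Foxd3 are shown because both genes separate WT libraries 2 to 4 from the rest and a SOX core can be looked for in them. They are the 250 bases before the RefSeq transcription start (GRCm38.p6), both on the plus strand, chr3:34649745-34649994 for Sox2 and chr4:99656049-99656298 for Foxd3. Capitals mark the SOX core ACAAAG, or ACAATG, on either strand.
Sox2: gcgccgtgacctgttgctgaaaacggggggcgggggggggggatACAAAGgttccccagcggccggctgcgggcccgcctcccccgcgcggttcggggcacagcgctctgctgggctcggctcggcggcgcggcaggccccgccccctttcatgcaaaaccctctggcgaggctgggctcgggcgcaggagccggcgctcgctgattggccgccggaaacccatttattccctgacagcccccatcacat
Foxd3: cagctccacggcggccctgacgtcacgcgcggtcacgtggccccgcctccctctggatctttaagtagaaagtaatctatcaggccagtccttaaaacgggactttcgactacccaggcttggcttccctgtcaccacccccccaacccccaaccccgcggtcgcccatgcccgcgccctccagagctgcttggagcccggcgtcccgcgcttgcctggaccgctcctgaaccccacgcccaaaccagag
The Sox2 stretch held ACAAAG on the plus strand, starting 206 bases before the transcription start, and the Foxd3 stretch held neither core.

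The receptors differed in the same direction. Erbb3, the neuregulin receptor on which Schwann cell precursors depend, was at 1.53, 4.26, 5.76 and 13.0 CPM in WT and at 1.31, 1.64, 0.425, 1.09 and 0.623 CPM in IRE1KO. WT library 1 lay within the IRE1KO range and WT library 4 was more than the sum of the other WT libraries. The means were 6.14 ± 4.9 CPM (SD, n = 4) and 1.02 ± 0.496 CPM (SD, n = 5), with a log2 fold change of -2.58 ± 0.59 SE that moved to -1.91 without WT library 4. Ednrb, the endothelin B receptor of neural crest cells and their glial and pigment progeny, was at 0.459, 0.616, 1.46 and 1.88 CPM in WT. In IRE1KO it was at 0.243, 1.13, 0.265, 0.364 and 0.336 CPM, so that IRE1KO library 2 exceeded WT libraries 1 and 2. Gfra3, the artemin co-receptor of sensory neurons and Schwann cell precursors, was near the floor: the WT libraries had 1, 7, 4 and 19 counts and the IRE1KO libraries 2, 2, 0, 0 and 2. It was not tested.

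Ptprz1, a receptor tyrosine phosphatase of glial progenitors that osteoblasts also express, behaved otherwise. Its levels were 29.2, 19.2, 8.03 and 7.57 CPM in WT libraries 1 to 4 and 10.5, 12.3, 10.5, 9.89 and 10.2 CPM in IRE1KO. Here WT library 1 was the highest and WT libraries 3 and 4 were below every IRE1KO library, the reverse of the order seen for Sox10 and Erbb3. The log2 fold change of Ptprz1, -0.58 ± 0.37 SE, became -0.12 without WT library 1.

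**Figure D2:**
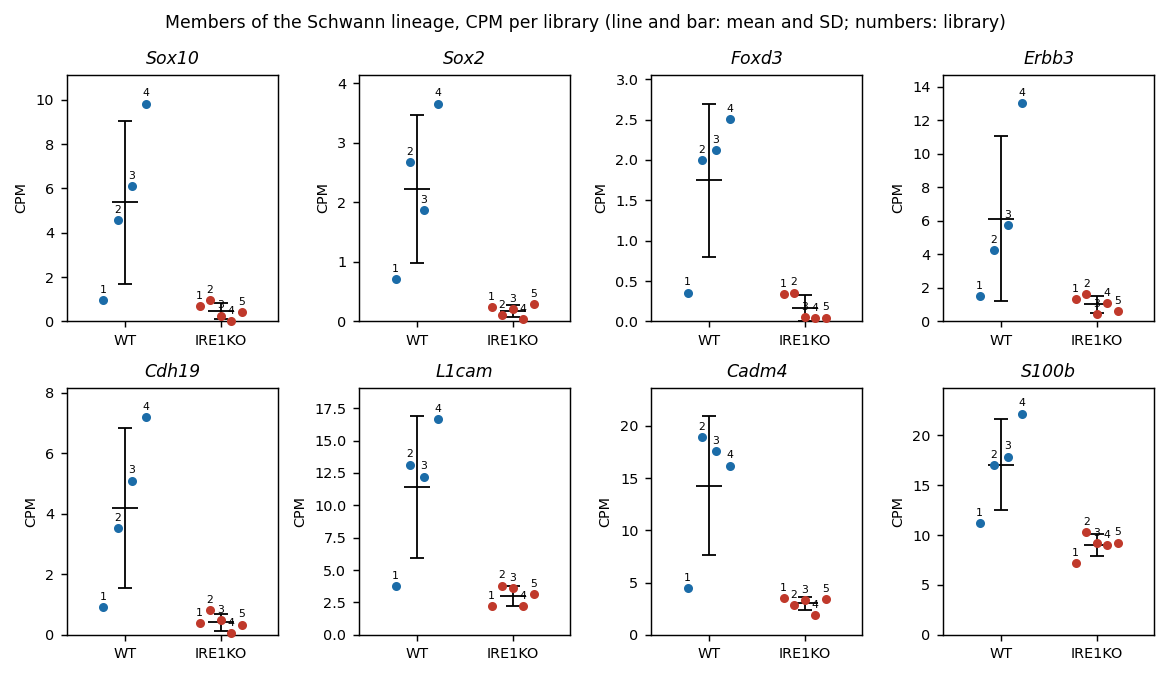
CPM per library (vertical axes, starting at 0) of 8 genes of the Schwann lineage in WT (blue, n = 4) and IRE1KO (red, n = 5), with the library number beside each point and the mean and SD as a black line and bar. WT library 1 is the WT point nearest to the IRE1KO points in every panel, at 0.97 CPM for Sox10 and 3.73 CPM for L1cam, and WT libraries 2, 3 and 4 lie above it.

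Of the adhesion molecules, Cdh19, L1cam, Chl1 and 3 of the 4 CADM genes were at least 2-fold lower in IRE1KO by their means. Cdh19, a cadherin that marks Schwann cell precursors, was at 0.919, 3.54, 5.1 and 7.21 CPM in WT and at 0.388, 0.819, 0.478, 0.0456 and 0.336 CPM in IRE1KO. The groups met without overlap between WT library 1 (18 counts) and IRE1KO library 2 (16 counts), and the log2 fold change was -3.34 ± 0.65 SE. L1cam (chromosome X, 73853778 to 73896105), the neural adhesion molecule of axons and unmyelinating Schwann cells, was at 3.73, 13.1, 12.2 and 16.7 CPM in WT and at 2.23, 3.79, 3.61, 2.19 and 3.12 CPM in IRE1KO. With WT library 1 inside the IRE1KO range, the other 3 WT libraries were at 3.28 times its level or more. Its log2 fold change was -1.94 ± 0.38 SE, and -2.23 ± 0.2 SE without WT library 1.

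CADM proteins, or nectin-like molecules, bridge Schwann cells and axons: CADM4 sits on the Schwann cell along the internode and binds CADM3 and CADM2 on the axon, and CADM1 is broadly expressed. Cadm4 (chromosome 7, 24482023 to 24504539) was at 4.44, 18.9, 17.6 and 16.2 CPM in WT and at 3.49, 2.87, 3.29, 1.91 and 3.4 CPM in IRE1KO. WT libraries 2 to 4 were close to one another, and WT library 1 was nearer to the IRE1KO libraries than to them. The means were 14.3 ± 6.66 CPM (SD, n = 4) and 2.99 ± 0.65 CPM (SD, n = 5), and Cadm4 was the other called gene, with a log2 fold change of -2.25 ± 0.38 SE. That call was lost in the same fits as the call of Sox2, and also without the filter on low counts. Cadm1 was at 3.68, 4.05, 9.75 and 12.0 CPM in WT and 1.38 to 2.81 CPM in IRE1KO, with no overlap and a log2 fold change of -1.84 ± 0.39 SE. Cadm2 was at 1.23, 2.56, 2.32 and 1.57 CPM in WT and 0.683 to 1.12 CPM in IRE1KO, also without overlap (-1.11 ± 0.26 SE). Cadm3, the axonal partner of CADM4, did not share this pattern, at 1.28, 1.59, 2.12 and 1.51 CPM in WT and 1.69 to 2.28 CPM in IRE1KO (0.25 ± 0.18 SE).

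The remaining immunoglobulin adhesion molecules varied. Chl1, a close relative of L1cam, was at 0.511, 1.9, 2.27 and 4.96 CPM in WT and at 0.97, 2.3, 0.478, 1.23 and 0.575 CPM in IRE1KO, so that IRE1KO library 2 exceeded 3 of the 4 WT libraries. Its log2 fold change was -1.11 ± 0.61 SE, and -0.49 without WT library 4. Ncam2 rested on 1 library: it was at 4.65 CPM in WT library 4, at 0.718 to 1.01 CPM in the other WT libraries and at 0.584 to 1.5 CPM in IRE1KO, and its log2 fold change turned from -0.81 to 0.27 without WT library 4. Ncam1, the neural cell adhesion molecule that mesenchymal cells also carry, was at 134.6, 112.8, 94.9 and 91.2 CPM in WT and at 143.7, 128.7, 132.5, 145.1 and 133.4 CPM in IRE1KO. The IRE1KO mean was the higher one for Ncam1 (log2 fold change 0.33 ± 0.11 SE), with WT library 1 inside the IRE1KO range.

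The upstream stretches of Cadm4 and Chl1 are shown as the other 2 genes of the list with a SOX core, again 250 bases before the RefSeq start (GRCm38.p6) on the plus strand, chr7:24481773-24482022 and chr6:103510626-103510875. Capitals mark the core as it reads on this strand.
Cadm4: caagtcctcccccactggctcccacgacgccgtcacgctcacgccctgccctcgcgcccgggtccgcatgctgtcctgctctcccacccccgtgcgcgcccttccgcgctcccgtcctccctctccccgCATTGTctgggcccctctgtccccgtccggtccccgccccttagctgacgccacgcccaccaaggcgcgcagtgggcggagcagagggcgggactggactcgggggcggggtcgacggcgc
Chl1: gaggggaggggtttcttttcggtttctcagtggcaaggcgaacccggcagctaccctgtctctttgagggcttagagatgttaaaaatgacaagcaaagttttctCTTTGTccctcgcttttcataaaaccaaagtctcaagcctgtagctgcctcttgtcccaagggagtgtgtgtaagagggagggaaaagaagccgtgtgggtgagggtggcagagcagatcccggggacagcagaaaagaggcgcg
The Cadm4 match is ACAATG on the minus strand, 121 bases before the start, and the Chl1 match is ACAAAG on the minus strand, 145 bases before it. RefSeq stretches were found for 17 of the 29 genes, and 3 of those 17 (17.6%) held a core, against 28.2% of the 27025 genes with a stretch and 25.2% of the 32851 stretches of that length. The share in the list was thus no higher than among all genes. A match of 6 letters is a description of the sequence and not a binding site.

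Among the genes described here, those of myelin and lipid-binding proteins, Mbp, Pmp2, Fabp7 and Cmtm5, did not follow the library order of the lineage genes. Mbp, myelin basic protein, whose locus also makes golli transcripts outside myelinating glia, was at 47.8, 25.6, 19.8 and 16.6 CPM in WT and at 33.6, 31.4, 28.8, 31.4 and 28.5 CPM in IRE1KO. WT library 1 was the highest of the 9 libraries for Mbp and the other 3 WT libraries were below every IRE1KO library. Its log2 fold change was 0.16 ± 0.27 SE, and 0.57 ± 0.13 SE without WT library 1. Pmp2, the fatty acid binding protein of peripheral myelin, was at 0.909 to 1.98 CPM in WT and 1.01 to 2.23 CPM in IRE1KO. Annotated exons of another gene on the same strand cover 86.9% of its exons, so its reads could be shared. Fabp7, the brain-type fatty acid binding protein of immature glia, was at 2.35, 1.9, 1.06 and 1.72 CPM in WT and 0.665 to 1.05 CPM in IRE1KO. The groups met at WT library 3, which had 21 counts of Fabp7 against 22 in IRE1KO library 5, and WT library 1 was here the highest (log2 fold change -1.11 ± 0.25 SE). Cmtm5, a MARVEL-domain protein of myelinating glia, was at 1.99, 1.8, 0.454 and 0.992 CPM in WT and 1.59 to 1.99 CPM in IRE1KO.

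S100b, the calcium-binding protein used as a general Schwann cell marker and also made by chondrocytes and adipocytes, was at 11.2, 17.0, 17.9 and 22.2 CPM in WT and at 7.23, 10.3, 9.19, 8.98 and 9.25 CPM in IRE1KO. All WT libraries were above all IRE1KO libraries, WT library 1 by less than 1 CPM. The log2 fold change of S100b was -0.93 ± 0.18 SE, just short of 2-fold by the means (1.9-fold), as Gldn at 2.16-fold was just past it.

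The ion channels and the secreted proteins of the axon-glia contact were lower on average. Kcna6, a Shaker-type potassium channel subunit, was at 2.25, 4.51, 4.34 and 7.89 CPM in WT and at 1.15 to 2.23 CPM in IRE1KO, where WT library 1 (44 counts) stood directly above IRE1KO library 4 (49 counts in a deeper library). The log2 fold change was -1.53 ± 0.34 SE, and an antisense gene shares 39.6% of the annotated exon bases of Kcna6. Kcna1, its neighbour on chromosome 6 and the channel of the juxtaparanode, was at 0.204, 0.975, 0.757 and 1.31 CPM in WT and 0.288 to 0.743 CPM in IRE1KO, with WT library 1 the lowest of all 9. Gldn, gliomedin, which Schwann cells secrete to cluster sodium channels at nodes of Ranvier, was at 2.71, 6.62, 6.62 and 5.01 CPM in WT and at 2.96, 2.46, 1.65, 2.96 and 2.11 CPM in IRE1KO. Here too WT library 1 was within the IRE1KO range, and the other 3 were above it (log2 fold change -1.11 ± 0.28 SE).

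Lgi4, a ligand that Schwann cells secrete and need for myelination, was at 1.12, 3.18, 3.33 and 7.0 CPM in WT and 1.28 to 2.2 CPM in IRE1KO. Of all 9 libraries WT library 1 was again the lowest for Lgi4, and the log2 fold change of -1.18 ± 0.43 SE was -1.48 without it and -0.66 without WT library 4. Fxyd3 on the opposite strand, which overlaps 44.9% of the Lgi4 exon bases, had 0 counts in all 9 libraries. Matn2, matrilin 2, a matrix protein made by Schwann cells and fibroblasts, was at 62.3, 81.2, 123.9 and 245.6 CPM in WT and at 66.5, 74.7, 77.7, 85.2 and 72.2 CPM in IRE1KO. WT library 2 was within the IRE1KO range and WT library 1 below it, so that the difference in means (log2 fold change -0.77 ± 0.34 SE, -0.25 without WT library 4) came from WT libraries 3 and 4.

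Adam23, a catalytically inactive ADAM protein that binds LGI ligands, and Gap43, the growth cone protein, showed wide overlap. Adam23 was at 183.2, 244.6, 300.6 and 430.0 CPM in WT and 241.8 to 330.0 CPM in IRE1KO (fitted difference -0.05 ± 0.22 SE on the log2 scale). Gap43 was at 2.71, 4.67, 5.35 and 9.66 CPM in WT and at 4.61, 9.32, 5.52, 5.47 and 5.18 CPM in IRE1KO (0.10 ± 0.34 SE). WT library 1 was the lowest library for both genes and WT library 4 the highest.

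**Figure D3:**
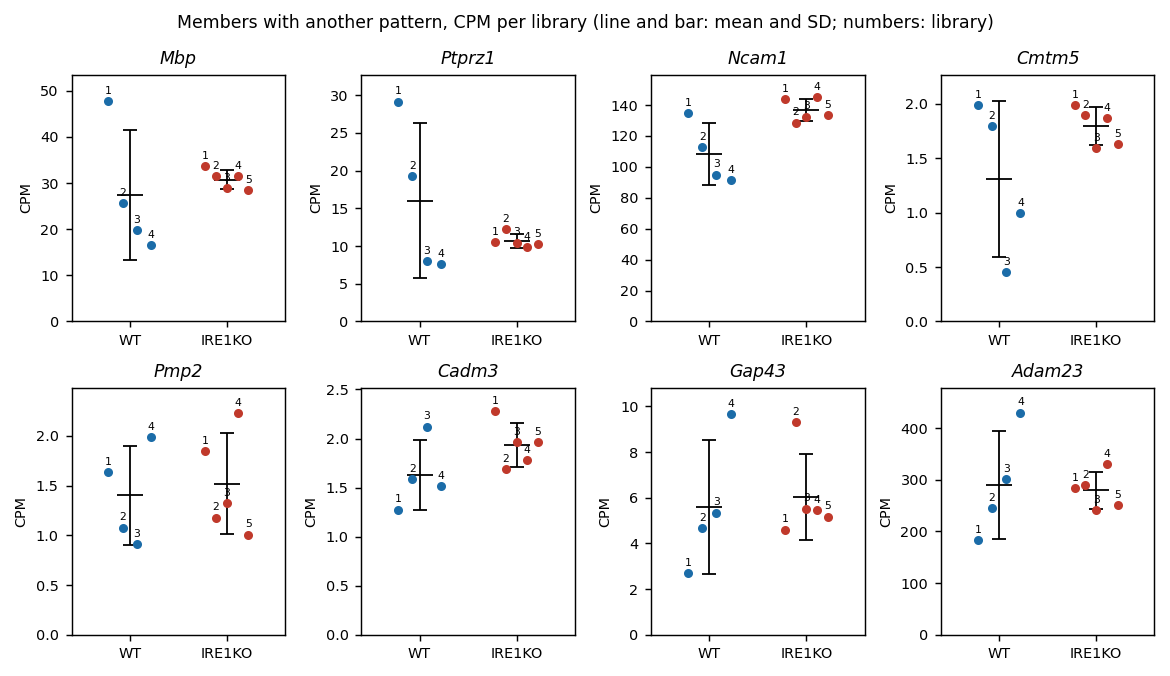
CPM per library (vertical axes, starting at 0) of 8 genes of the list that did not follow Sox10, in WT (blue, n = 4) and IRE1KO (red, n = 5), with library numbers and the mean and SD. WT library 1 is the highest point for Mbp (47.8 CPM) and Ptprz1 (29.2 CPM) and the lowest for Gap43 (2.71 CPM) and Adam23 (183.2 CPM).

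Across the 17 genes with at least 2-fold lower means, WT library 1 was the lowest WT library in 16, Fabp7 being the exception, and lay within or below the IRE1KO range in 9. WT libraries 2 to 4 were all above every IRE1KO library in 15 of the 17, Ednrb and Chl1 being the exceptions. The 17 were picked by their lower IRE1KO mean, which favours such a count. Over all 29 genes it held for 17, S100b and Kcna1 being added, and the share over all genes tested was not computed. WT library 4 was the highest WT library in 13 of the 17. Among the IRE1KO libraries, library 2 was the highest for 9 of the 17, and over all 29 genes it was the highest for 12, against 20.7% of genes tested.

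**Figure D4:**
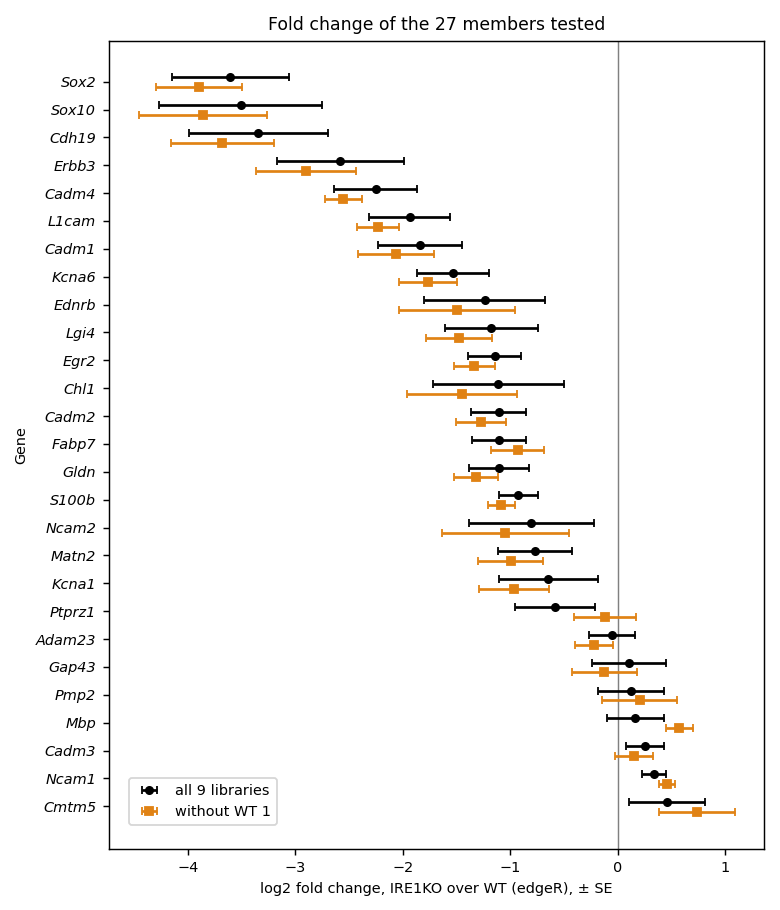
Fitted log2 fold change (IRE1KO over WT, horizontal axis) ± SE of the 27 genes tested, with all 9 libraries (black) and without WT library 1 (orange). The estimates run from -3.60 for Sox2 to 0.45 for Cmtm5, and leaving out WT library 1 moves Sox10 to -3.86 and narrows the SE of Cadm4 from 0.38 to 0.17.

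Levels of different genes were compared per kilobase of annotated exon. On that scale the leading genes in WT were Matn2, Adam23, Ncam1 and S100b, with mean levels of 20.5, 16.2, 12.5 and 11.5 CPM per kilobase, followed by Cadm4 at 6.61. In IRE1KO the leading levels were 15.8 for Ncam1, 15.6 for Adam23, 12.0 for Matn2 and 6.05 CPM per kilobase for S100b. Sox10 was at 1.76 CPM per kilobase in WT and 0.154 in IRE1KO, and Erbb3 at 1.02 and 0.169. The most abundant genes of the list per length were thus Matn2, Adam23 and Ncam1, which are not restricted to glia, and the lineage genes with the widest separation were scarce in both groups.

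Other genes of the same pathways were taken from lists of known pathway genes. The counts for these lists stand beside those over all 13712 genes tested. Of these, 2263 reached an unadjusted p under 0.05 in edgeR, 87 were called by edgeR and 568 by DESeq2. Of 16 other myelin genes 7 could be tested and none was called, while 3 reached an unadjusted p under 0.05 in edgeR and 1 was called by DESeq2. All 7 had negative fold changes, with a median log2 fold change of -0.29 against -0.0050 over all genes. Pmp22, a peripheral myelin protein that fibroblasts also make, was at 121.1 ± 19.7 CPM in WT (SD, n = 4) and 99.3 ± 8.21 CPM in IRE1KO (SD, n = 5), with an adjusted p of 0.227 in edgeR. Other genes of the myelin list were at or near the floor: Mag was at no more than 0.146 CPM, and Pllp and Gjb1 had 0 counts in every library.

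Of 15 further transcription factors of the neural crest and Schwann lineage found in the table, 13 were tested and none was called, with 5 at an unadjusted p under 0.05 and 1 called by DESeq2 (median log2 fold change -0.08). Snai2, a neural crest factor that mesenchymal cells keep, was at 46.7 ± 7.54 CPM in WT (SD, n = 4) and 35.5 ± 0.798 CPM in IRE1KO (SD, n = 5), without overlap, with an adjusted p of 0.0934 in edgeR (0.00849 to 0.279 over the alternatives, and 0.0145 without WT library 1). For Jun, which drives the repair state of injured Schwann cells and responds to many stimuli, the log2 fold change was -0.20 ± 0.06 SE (adjusted p = 0.16 in edgeR, 0.0255 without WT library 1 and up to 0.402 over the alternatives). Of 9 neuregulin and ErbB genes 5 were tested, none reached an unadjusted p under 0.05 in edgeR, and DESeq2 called none. Nrg1, the ligand of ERBB3, was at 11.8 ± 0.551 CPM in WT (SD, n = 4) and 13.1 ± 0.805 CPM in IRE1KO (SD, n = 5), and Erbb2ip, which binds ERBB2, at 249.8 ± 26.3 and 229.6 ± 6.46 CPM.

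Among 17 further axon-glia adhesion genes 14 were tested, 6 reached an unadjusted p under 0.05 and 1 rose, with a median log2 fold change of -0.02 over the 14. The other 5 of the 6 had negative fold changes and were not called: Cntn1, Cntnap1, Adam22, Adam11 and Dag1, named after their values were seen. Of these Cntn1, contactin 1, did not overlap between the groups, at 0.766, 1.23, 1.31 and 2.25 CPM in WT and 0.319 to 0.729 CPM in IRE1KO, a difference of -1.33 ± 0.35 SE on the log2 scale. Without WT library 1 edgeR called 6 of the 14, of which 4 fell and 2 rose. The gene that rose with all libraries was Cntn2, contactin 2, an adhesion molecule of the juxtaparanode, which was at 0.408, 0.308, 0.303 and 0.313 CPM in WT and at 0.873, 1.07, 0.849, 0.729 and 1.2 CPM in IRE1KO. The groups did not overlap, and Cntn2 ran opposite to the Schwann genes at a low level (log2 fold change 1.49 ± 0.23 SE, adjusted p = 0.0436 in edgeR). The call was lost with any 1 of the 5 IRE1KO libraries left out and without WT library 2 or 3, at adjusted p of 0.0831 to 0.141 in edgeR, and also without the filter and in limma voom. Over all alternatives its adjusted p was 0.00822 (DESeq2) to 0.227. Of 14 genes of the endothelin and GDNF families 10 were tested and none was called, with 4 at an unadjusted p under 0.05 and none called by DESeq2 (median log2 fold change -0.24). Gfra2, the neurturin co-receptor, was at 2.96, 3.39, 10.6 and 28.8 CPM in WT and 2.56 to 5.38 CPM in IRE1KO. Gfra1, the GDNF co-receptor, was at 14.3 ± 10.3 CPM in WT (SD, n = 4) and 7.19 ± 1.45 CPM in IRE1KO (SD, n = 5). Both were highest in WT library 4 (adjusted p of 0.238 and 0.266 in edgeR).

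Ngfr, the p75 neurotrophin receptor of immature and unmyelinating Schwann cells, was at 3.32, 17.1, 18.4 and 23.3 CPM in WT and at 1.94, 1.94, 1.06, 0.456 and 1.73 CPM in IRE1KO, the same order of libraries as Sox10 within WT. It fell in IRE1KO, with a log2 fold change of -3.44 ± 0.56 SE and an adjusted p of 0.0452 in edgeR. The call was lost with any 1 IRE1KO library left out and without WT library 2 or 3, at adjusted p of 0.111 to 0.141 in edgeR, and the adjusted p was 0.00206 without WT library 1, 8.1e-08 in DESeq2 and at most 0.278 over the alternatives.

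**Figure D5:**
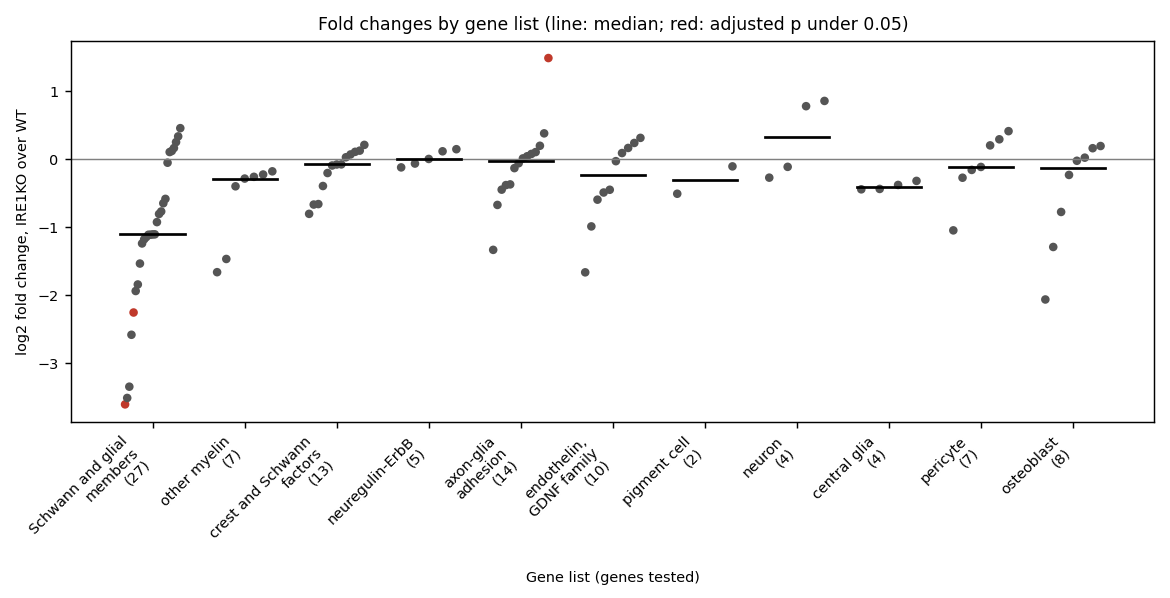
Log2 fold change (IRE1KO over WT, vertical axis) of each tested gene in the list of Schwann and glial genes and in the lists used beside it, with the median as a line and genes at an adjusted p under 0.05 in red. The Schwann and glial genes reach -3.60 and have their median at -1.11, the other myelin genes have theirs at -0.29, and the red point above 0 is Cntn2 at 1.49.

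Markers of other cell types give the setting in which these values stand. Of 10 pigment cell markers 5, Dct, Tyrp1, Tyr, Oca2 and Gpr143, had 0 counts in all libraries, and the summed level of the list was 11.6 to 12.0 CPM in IRE1KO and 11.3 to 14.5 CPM in WT, nearly all of it Mitf. None of the 2 tested was called (Pmel, log2 fold change -0.51 ± 0.18 SE, with an unadjusted p under 0.05; Mitf, -0.11 ± 0.077 SE), and DESeq2 called none. Of 14 neuron markers 3, Rbfox3 and Chat among them, had 0 counts in all libraries, and the sum was 65.5 to 79.8 CPM in IRE1KO and 44.9 to 103.4 CPM in WT. None of the 4 tested was called in edgeR, 1 of them having an unadjusted p under 0.05 and being called by DESeq2: Nefm, a neurofilament, differed by 0.78 ± 0.17 SE on the log2 scale and Syt1 by 0.86 ± 0.43 SE. Of 10 markers of astrocytes and oligodendrocytes, Olig1, Olig2 and Mog had 0 counts in all libraries, and the sum was 52.9 to 98.1 CPM in IRE1KO and 44.8 to 184.6 CPM in WT. None of the 4 tested had an unadjusted p under 0.05 or was called by DESeq2 (Slc1a2, -0.44 ± 0.24 SE; Aldoc, -0.38 ± 0.36 SE).

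Of 8 pericyte markers 7 were tested and none was called in edgeR, with 2 at an unadjusted p under 0.05 and 1 called by DESeq2, and the sum was 744.6 to 777.0 CPM in IRE1KO and 669.5 to 858.1 CPM in WT. Mcam was at 73.4, 53.6, 32.1 and 29.9 CPM in WT and 22.9 ± 2.86 CPM in IRE1KO (SD, n = 5), highest in WT library 1 where the Schwann genes were lowest, and Pdgfrb differed by 0.20 ± 0.076 SE on the log2 scale. Of 10 osteoblast markers 8 were tested and none was called in edgeR, with 3 at an unadjusted p under 0.05 and 1 called by DESeq2. Their sum, led by Col1a1, was 36891 to 40991 CPM in IRE1KO and 27483 to 54007 CPM in WT. Ibsp, bone sialoprotein, was at 0.766, 2.1, 2.37 and 3.92 CPM in WT and at 0.097 to 1.01 CPM in IRE1KO (adjusted p = 0.152 in edgeR, 0.0326 without WT library 1 and up to 0.316 over the alternatives). Phex, an endopeptidase of osteoblasts and osteocytes, was at 1.23, 2.15, 2.27 and 5.69 CPM in WT and 0.82 to 1.44 CPM in IRE1KO (adjusted p = 0.187 in edgeR, 0.0367 without WT library 1 and up to 0.410 over the alternatives). Both late osteoblast genes thus had WT library 1 within the IRE1KO range and WT library 4 highest, as the Schwann lineage genes did, and their part in the result was not tested. The 29 Schwann and glial genes summed to 534.2 to 648.3 CPM in IRE1KO and to 511.8, 597.2, 673.5 and 965.7 CPM in WT libraries 1 to 4, a sum carried by Adam23, Ncam1 and Matn2.

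The 10 genes outside all lists whose levels ran most like the mean of the 27 tested Schwann and glial genes over the 9 libraries included Grin3a, Pgbd1, Pdia6, Kctd12b, Aatk, Slx1b, Syt11, Mccc1 and Zmynd8. Pearson's r with the mean standardized log2 CPM was 0.98 for Grin3a, a glutamate receptor subunit, and 0.97 for Zmynd8. These coefficients describe 9 libraries that share a split between 3 high and 6 low libraries, so they carry little beyond that split. The sizes of the differences were far from alike. Aatk, a kinase known from neural tissue, was at 0.919, 2.05, 3.08 and 4.18 CPM in WT and 0.575 to 0.957 CPM in IRE1KO, while Pdia6, a disulfide isomerase of the endoplasmic reticulum, was at 415.5, 460.5, 485.3 and 519.7 CPM in WT and 393.6 to 415.8 CPM in IRE1KO. None of the 10 was called in edgeR with all 9 libraries.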

How the data were processed

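Poly(A) RNA of 9 libraries was sequenced. The authors deposited unnormalized read counts per gene. The submitters' processing notes name STAR, limma and mm10. The sources used here do not name the counting program, annotation or strand setting, so overlapping genes could share reads. Per the labels' protocols all libraries formed a single batch; litter and sort day are not labelled, and p-values measure the spread between these pools.

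Members and lists were chosen with earlier results of these data known. The main test was edgeR 4.0.16 in R 4.3.3 (filterByExpr, 0.505 CPM in 4 libraries, leaving 13712 genes and 27 of 29 members; TMM; robust quasi-likelihood; genotype only; Benjamini-Hochberg over all genes, threshold 0.05). Of the 27, 5 reached the filter in fewer than 4 IRE1KO libraries. Alternatives were DESeq2 1.42.0, limma 3.58.1 voom, RLE factors, no filter, each library left out, and a replicate block. Named genes were the members, in each list the called genes or else the 2 of smallest p, Ngfr, Ern1 and the 10 genes most like the members' mean. Genes named for counts near 0, and Mal, Cnp, Col1a1, Runx2 and Bglap, were chosen after their values were seen. Tead1 is not analysed here, some genes that the naming rule gives are not reported here, and A330049M08Rik, Erbb2ip and Pvrl1 to Pvrl4 were matched by identifier. Positions are GENCODE M21 (GRCm38, mm10), and promoters RefSeq (GRCm38.p6). The test was tried on simulated counts. Each SD is the spread between libraries, and each SE was derived from the edgeR F test, which includes that spread. The detection floors cover counting error only.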

Additional observations from a re-analysis of the deposited data

Results flagged for a closer look

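Of 120 groups examined (a named gene in 1 genotype), 8 held a library far from the others, where chance flags about 1 in 20 groups. Among the Schwann and glial genes, Ncam2 was at 4.65 CPM in WT library 4, with the next WT library at 1.01 CPM. IRE1KO library 2 stood above the other IRE1KO libraries for Ednrb (1.13 CPM, next 0.364), Gap43 (9.32 CPM, next 5.52) and Ptprz1 (12.3 CPM, next 10.5), and also for Pgbd1 (1.84 CPM, next 1.55). WT library 1 was the high library for Pdgfrb (526.4 CPM, next 426.6) and, by a narrow margin, for Cntn2 (0.408 CPM, next 0.313). IRE1KO library 4 was high for Aldoc (2.28 CPM, next 1.6).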

How the results depend on the processing

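The direction of the members' differences held better than their calls. Of 377 refitted fold changes of the 27 members tested, 376 moved by less than 1 SD between replicates. The exception was Ncam2 without WT library 4. Leaving out 1 library moves a group's mean by less than the group's SD in any case, so this count is a weak check of size. Without WT library 4 the log2 fold change of Matn2 went from -0.77 to -0.25 and still counted as unmoved. So did those of Chl1, from -1.11 to -0.49, and Lgi4, from -1.18 to -0.66. The median of the 27 was -1.11, and -1.28 to -0.82 over the fits that left out 1 library. The sign turned in at least 1 fit for Mbp, Pmp2, Ncam2, Adam23 and Gap43, all but Ncam2 being near 0. The count of members called was 2 with TMM and with RLE factors, 13 in DESeq2, 1 without the filter, 0 in limma voom and 0 with the replicate block, and 0 to 16 over the fits that left out 1 library: 16 without WT library 1, 4 without WT library 4, and 0 without any 1 of the others. All genes called numbered 87, 568 in DESeq2, 16 in limma voom, 45 without the filter and 0 with the replicate block (edgeR, 1596 at an unadjusted p under 0.05), and 2 to 1192 with 1 library left out, the high values being 1192 without WT library 1 and 399 without WT library 4. Among the other lists, DESeq2 called 1 myelin gene, 1 lineage transcription factor, 2 axon-glia adhesion genes, 1 neuron marker, 1 pericyte marker and 1 osteoblast marker, while limma voom, the fit without the filter and the replicate block called 0 adhesion genes. With 1 library left out the calls were 0 to 3 for myelin, 0 to 2 for transcription factors, 0 to 6 for adhesion, 0 to 1 for the endothelin and GDNF families, neuron markers and pericyte markers, and 0 to 4 for osteoblast markers, the highest values without WT library 1, and for the endothelin and GDNF families and pericyte markers also without WT library 4. The log2 fold change of Aldoc was -0.61 to 0.093 with 1 library left out, turning positive without WT library 4. The cause was not tested. The deviations of same-numbered libraries had r of 0.15, -0.20, -0.19 and 0.47 across genes, for numbers 1 to 4. Between differently numbered libraries r was -0.54 to 0.51. The 0.47 was the highest r of IRE1KO library 4 with any WT library. The labels do not say what a shared number means, and whether same-numbered libraries share an origin was not tested. Foxd3 and Gfra3 were too low to test with all libraries, and at under 1 CPM a few counts move a level.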
